A study of Homo sapiens with 6 samples.

Results

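The stand-alone pseudouridine synthases are 10 genes, PUS1, PUS3, PUS7, PUS7L, PUS10, TRUB1, TRUB2, RPUSD1, RPUSD2 and RPUSD4, taken as a list of names and found by symbol among the 60612 genes of each expression table. All 10 were found, each under 1 Ensembl identifier. Their mRNA was measured by poly(A) RNA sequencing in HCT116, a widely used cell line from a human colorectal carcinoma. The cells had been infected with the negative control lentivirus LV-NC (3 libraries) or with the lentivirus LV-SNORA28, which overexpresses the small nucleolar RNA SNORA28 (3 libraries), so both groups carry a lentiviral vector in the same line and SNORA28 is made from the vector rather than from its own locus. The data describe 1 cell line, and nothing states that the libraries came from separate infections, so the p-values measure the spread between these libraries, which may be technical.

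Pseudouridine is an isomer of uridine and a frequent modified base of cellular RNA. It is made in either of 2 ways. Small nucleolar RNAs of the H/ACA class, to which SNORA28 belongs, pair with a target RNA and bring the enzyme dyskerin (DKC1) to a chosen uridine, while the stand-alone synthases recognise their substrates by sequence and fold without a guide RNA. The stand-alone enzymes are best known for modifying tRNA, and several also act on mRNA or inside mitochondria. The comparison asks whether raising a guide RNA of the first system was accompanied by a change in the mRNA of the enzymes of the second.

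The values are FPKM, in which the fragments of a gene are scaled to its transcript length and to the mapped total, so that levels of different genes can be set side by side. Read depth was not given, so no counting interval is attached. SNORA28 gave 0.92, 0 and 0.64 FPKM with LV-NC, against 15.01, 13.66 and 15.2 FPKM with LV-SNORA28, which follows the labels. Its log2 fold change was 3.41 (SE 0.23, limma adjusted p = 0.00228), although small nucleolar RNA lacks the poly(A) tail on which the libraries were selected. Of 7 epithelial markers, 6 had at least 1 FPKM in every library and VIL1 stayed below 0.1 FPKM. The 3 leukocyte and 2 endothelial markers stayed below 0.1 FPKM. Of 5 fibroblast and muscle markers, 3 (COL1A1, ACTA2 and DES) had at least 1 FPKM in every library. COL1A2 and DCN were listed at 0 in every library. The list summed to 6.76 to 9.25 FPKM in LV-NC and 8.7 to 9.63 FPKM in LV-SNORA28. ACTA2 of that list was higher in LV-SNORA28 (log2 fold change 0.47, limma adjusted p = 0.0273) but passed in 1 of the 6 fits with 1 library left out, and its part in the results below was not tested. Genes of the mitochondrial genome held 42.7% to 47.7% of all FPKM in the LV-NC libraries, against 35.9% to 38.3% with LV-SNORA28, and FPKM values are relative to a total that includes them.

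Among the 10 synthases, RPUSD4 was higher in LV-SNORA28 and no other gene passed the test. The call of RPUSD4 held in 1 of the 6 fits with 1 library left out. RPUSD4 is a mitochondrial enzyme that modifies the 16S ribosomal RNA of the mitochondrial ribosome, and its mean level more than doubled, from 3.34 to 7.50 FPKM. The log2 fold changes of the other 9 genes lay between -0.24 and 0.34. The test was limma on log2(FPKM + 1), with p-values adjusted by the Benjamini-Hochberg method over the 12076 genes that averaged at least 1 FPKM. The adjusted p was below 0.05 for 1 of the 10 synthases, higher in LV-SNORA28, and for 0 that were lower. Over all genes tested the share was 8.91%, made up of 6.81% higher and 2.1% lower. At an unadjusted p below 0.05 there were 1 higher (RPUSD4) and 1 lower (RPUSD2) of the 10 synthases, against 22% higher and 6.08% lower over all genes tested. The threshold used in the study, a fold change above 1.5 together with p below 0.05 before adjustment, was met by RPUSD4 alone, against 3.79% of all genes tested. Here the p and the fold change came from the limma fit on log2(FPKM + 1), not from the study's own calculation. The groups did not overlap for 3 synthases (RPUSD4, TRUB1 and RPUSD2), against 35.1% of all genes tested. The counts of synthases called and of synthases without overlap lay near the shares over all genes and are no result about the list. The median log2 fold change was 0.0088 over the 10 synthases and 0.0851 over all genes tested. Of the 10, 9 passed the filter. PUS10 did not, and was read from the same fit without a filter.

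**Figure D1:**
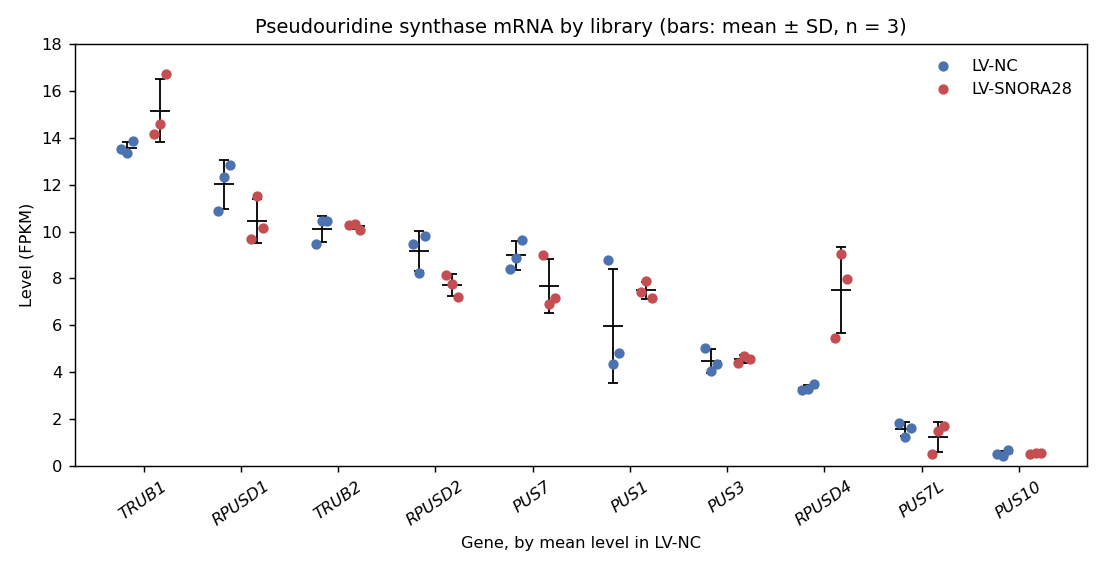
Level of each synthase in FPKM (vertical axis) by gene, ordered by the mean in LV-NC, with 1 point per library (blue, LV-NC; red, LV-SNORA28) and bars for the mean ± SD of 3 libraries. RPUSD4 moves from 3.23 to 3.49 FPKM in LV-NC to 5.46 to 9.05 FPKM in LV-SNORA28, and the LV-NC library with 8.78 FPKM of PUS1 stands apart from the other two.

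RPUSD4 (ENSG00000165526; GRCh38 chromosome 11, 126202096 to 126211692, minus strand) gave 3.23, 3.3 and 3.49 FPKM with LV-NC, against 5.46, 9.05 and 7.98 FPKM with LV-SNORA28. Every LV-SNORA28 library lay above every LV-NC library, and the LV-SNORA28 libraries were the more scattered, with an SD of 1.84 FPKM against 0.135 FPKM. The ratio of the group means was 2.24, and the log2 fold change on the log2(FPKM + 1) scale was 0.95 (SE 0.16, 95% interval 0.56 to 1.33), with a limma adjusted p of 0.0218. By p-value RPUSD4 ranked 439 of the 12076 genes tested, and by fold change it ranked 87 among the highest. Its call depended on which libraries were included. With 1 library left out the log2 fold change ran from 0.81 to 1.13, but the limma adjusted p was 0.0580, 0.0646 and 0.0625 without LV-NC replicates 1, 2 and 3, and 0.0617 and 0.0814 without LV-SNORA28 replicates 2 and 3. Only without LV-SNORA28 replicate 1, the lowest of its group, did it stay below 0.05, at 0.0134. The lncRNA ENSG00000254694 overlaps RPUSD4 on the same strand, and whether their reads were told apart is not given in the sources used here. It gave 0.31, 0.45 and 0.14 FPKM with LV-NC, against 0.55, 0.58 and 0.97 FPKM with LV-SNORA28.

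RPUSD4 also changed place among the synthases. In LV-NC it was the eighth of the 10 by mean level, below PUS3 in 3 of 3 libraries, and the ranges of the pair did not overlap. In LV-SNORA28 it was the sixth, above PUS3 in all 3 libraries. The log2 difference between RPUSD4 and PUS3, which does not depend on how a library was scaled apart from the added 1 FPKM, was -0.52, -0.23 and -0.25 in LV-NC and 0.26, 0.82 and 0.69 in LV-SNORA28 (exact two-sided permutation p = 0.1, the smallest that 3 against 3 libraries allow). PUS3 was chosen for this comparison after its values were seen.

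The RPUSD4 promoter is shown because RPUSD4 is the one synthase that passed the test, beside that of RPUSD2, a relative from the same bacterial RluA family whose values lay in the opposite direction. RPUSD4 starts back to back with FAM118B on the plus strand. In RefSeq (GRCh38.p14) 131 bases separate the starts, chr11:126211651-126211781, and the RPUSD2 stretch is the same number of bases directly before its start, chr15:40569168-40569298. Both are given 5′ to 3′ on the strand of the gene, and capitals mark CACGTG, the E-box, which is the same on both strands and is bound by basic helix-loop-helix factors such as MYC, MAX and USF1.
RPUSD4: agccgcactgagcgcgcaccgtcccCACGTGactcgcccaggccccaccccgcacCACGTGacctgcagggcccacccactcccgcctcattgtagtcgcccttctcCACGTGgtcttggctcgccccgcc
RPUSD2: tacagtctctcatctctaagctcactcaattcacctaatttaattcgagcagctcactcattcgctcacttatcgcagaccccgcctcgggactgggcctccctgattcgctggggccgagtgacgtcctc

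The RPUSD4 stretch was 71.8% G and C and held 3 copies of CACGTG. Their first bases lay 106, 76 and 24 bases before the RefSeq start, base 126211650. GENCODE places the start of RPUSD4 at base 126211692, inside this stretch, so the copy 24 bases away lies within the GENCODE gene. The RPUSD2 stretch was 54.2% G and C and held 0 copies. In the 250 bases before each start, CACGTG occurred in 7.73% of the 27305 genes with a promoter in the RefSeq table, and 3 or more copies occurred in 26 genes (0.0952%). Of the 8 synthases in the table, RPUSD4 alone held it. In RefSeq the 3 copies also lie before the start of FAM118B, which did not pass the test (limma adjusted p = 0.188). GENCODE places the start of FAM118B at base 126211724. By that start the copy 106 bases before RPUSD4 lies within FAM118B, and the copy 76 bases before RPUSD4 spans its start. PUS1 and PUS7L were not in the table. Of 5 other motifs searched on both strands of the same windows, GGGCGG was found in 5 of the 8 synthases (46.2% of all genes), CCAAT in 2 (37.0%), CCGGAA in 2 (17.2%), GCCATNTT in 1 (4.71%) and GCGCATGC in 0 (3.22%). The motifs were chosen after the expression values were seen, a match describes the letters only, and binding was not measured here.

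A second member with a mitochondrial role, TRUB2 (ENSG00000167112; chromosome 9, 128305159 to 128322447, minus strand), is reported to act on mitochondrial mRNA. TRUB2 gave 9.48, 10.43 and 10.44 FPKM with LV-NC, against 10.26, 10.33 and 10.08 FPKM with LV-SNORA28, where all 3 values fell inside the LV-NC range. Its log2 fold change was 0.01 (95% interval -0.14 to 0.17, limma adjusted p = 0.904) and took a negative sign under both other scalings (-0.0737 with quantile normalization and -0.00974 with the nuclear sum). Its upper bound lay below the lower bound of the interval of RPUSD4. SWI5 overlaps TRUB2 on the opposite strand, and whether strand was used in the quantification is not given in the sources used here.

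The genes known to work beside these enzymes were taken from a list. RPUSD3, FASTKD2, NGRN and RCC1L form, with RPUSD4 and TRUB2, a module that acts on mitochondrial 16S ribosomal RNA. RCC1L gave 5.75, 6.92 and 6.92 FPKM with LV-NC, against 8.28, 9.09 and 9.15 FPKM with LV-SNORA28. It was higher in LV-SNORA28 (log2 fold change 0.39, SE 0.09, limma adjusted p = 0.0451), but the adjusted p lay between 0.0719 and 0.141 in all 6 fits with 1 library left out. RCC1L passed in 2 of the 7 fits with another setting. Its limma adjusted p was 0.0528 with the replicate number as a block, 0.116 with quantile normalization and 0.106 without a filter. FASTKD2 had no overlap between the groups and missed the threshold (log2 fold change 0.19, limma adjusted p = 0.153). RPUSD3 and NGRN did not pass (log2 fold change 0.05, limma adjusted p = 0.790, and -0.06, limma adjusted p = 0.618). Of the 6 genes of the module, RPUSD4 and RCC1L passed the test, against 8.91% of all genes tested. RPUSD4 is counted again here and the lists were chosen with earlier results known, so this count is no result about the module. The intervals for RPUSD3 (-0.19 to 0.29) and NGRN (-0.21 to 0.10) lay below the interval of RPUSD4.

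The RNAs that these mitochondrial enzymes modify were lower in LV-SNORA28 in the deposited FPKM. MT-RNR2, the 16S ribosomal RNA modified by RPUSD4, gave 6070, 7011 and 5695 FPKM with LV-NC, against 4401, 4390 and 4217 FPKM with LV-SNORA28 (log2 fold change -0.52, limma adjusted p = 0.0246). The libraries were selected on poly(A), so the FPKM of this ribosomal RNA need not follow its amount. MT-CO1 and MT-ND5, mitochondrial mRNAs reported as TRUB2 substrates, had log2 fold changes of -0.56 and -0.63 (limma adjusted p = 0.0127 and 0.0106). The 3 genes were picked after the values were known and belong to the mitochondrial share described above, and no part of that fall in the change of RPUSD4 was tested. With the values scaled to the nuclear FPKM sum the log2 fold change of RPUSD4 was 0.92 (limma adjusted p = 0.0238) and that of MT-RNR2 was -0.55 (limma adjusted p = 0.0198). Quantile normalization, which gives every library the same set of values, left MT-RNR2, MT-CO1 and MT-ND5 at -0.0167, -0.13 and -0.0861 (limma adjusted p = 0.897, 0.505 and 0.670) and RPUSD4 at 0.85 (limma adjusted p = 0.0346). MT-RNR2 passed in 2 of the 6 fits with 1 library left out, with a highest adjusted p of 0.0946. With the replicate number as a block the limma adjusted p was 0.0548 for MT-RNR2, 0.0533 for MT-CO1 and 0.0359 for MT-ND5, and without a filter it was 0.257, 0.410 and 0.127. FPKM is relative to the total of each library. Less RNA per cell, fewer cells with that RNA and more of other RNA cannot be told apart in these bulk samples.

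PUS1, the synthase with a wide range of tRNA and mRNA substrates in the nucleus and in mitochondria, had the next largest positive fold change. PUS1 (ENSG00000177192; chromosome 12, 131929200 to 131945896, plus strand) gave 8.78, 4.37 and 4.8 FPKM with LV-NC, against 7.44, 7.89 and 7.15 FPKM with LV-SNORA28. The LV-SNORA28 libraries lay close together, above LV-NC replicates 2 and 3 and below LV-NC replicate 1. The log2 fold change was 0.34 (SE 0.22, 95% interval -0.19 to 0.87, limma adjusted p = 0.373). LV-NC replicate 1 decides this value. Without it the log2 fold change of PUS1 was 0.60 with a limma adjusted p of 0.0243, and in the other 5 fits with 1 library left out it ran from 0.17 to 0.36. The lncRNA ENSG00000273568 overlaps PUS1 on the same strand. It too was highest in replicate 1 of LV-NC, with 2.26, 0.93 and 0.92 FPKM, against 2.62, 1.78 and 1.96 FPKM in LV-SNORA28. The antisense gene PUS1-AS1 stayed at or below 0.56 FPKM in every library.

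PUS3, which modifies the anticodon arm of tRNA, gave one of the smallest fold changes. It gave 5.05, 4.04 and 4.35 FPKM with LV-NC, against 4.38, 4.71 and 4.56 FPKM with LV-SNORA28, with each LV-SNORA28 value inside the LV-NC range. Its log2 fold change was 0.02 (95% interval -0.19 to 0.23, limma adjusted p = 0.896), and it was -0.0723 with quantile normalization and -0.000351 with nuclear scaling. HYLS1 overlaps PUS3 (ENSG00000110060; chromosome 11, 125893485 to 125903221, minus strand) on the opposite strand. HYLS1 itself was higher in LV-SNORA28 (5.87 ± 0.364 against 8.23 ± 0.357 FPKM, SD, n = 3; limma adjusted p = 0.0199), in 3 of the 6 fits with 1 library left out.

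PUS7 and PUS7L are related to bacterial TruD. PUS7 modifies tRNA and a short sequence element in mRNA, and PUS7L is its less studied relative. PUS7 (ENSG00000091127; chromosome 7, 105439661 to 105522271, minus strand) gave 8.42, 8.88 and 9.66 FPKM with LV-NC, against 9.01, 6.91 and 7.15 FPKM with LV-SNORA28. LV-SNORA28 replicate 1 lay within the LV-NC range and the other two below it (log2 fold change -0.21, 95% interval -0.47 to 0.05, limma adjusted p = 0.268). PUS7L (ENSG00000129317; chromosome 12, 43718992 to 43758793, minus strand) was near the filter, with 1.83, 1.24 and 1.63 FPKM under LV-NC, against 0.51, 1.5 and 1.7 FPKM under LV-SNORA28. Its log2 fold change was -0.24 (95% interval -0.79 to 0.32, limma adjusted p = 0.552) and became 0.0243 without LV-SNORA28 replicate 1, the library at 0.51 FPKM.

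TRUB1 and PUS10 both make the pseudouridine of the T loop of tRNA, and both have been linked to the processing of microRNA precursors. TRUB1 (ENSG00000165832; chromosome 10, 114938195 to 114977676, plus strand) was the highest of the synthases in both groups. It gave 13.51, 13.34 and 13.86 FPKM with LV-NC, against 14.18, 14.59 and 16.7 FPKM with LV-SNORA28. Every LV-SNORA28 value lay above every LV-NC value, yet with a log2 fold change of 0.15 (95% interval -0.03 to 0.33) TRUB1 did not pass the test (limma adjusted p = 0.264). PUS10 (ENSG00000162927; chromosome 2, 60940222 to 61018259, minus strand) was the lowest, with 0.52, 0.44 and 0.67 FPKM under LV-NC, against 0.53, 0.55 and 0.55 FPKM under LV-SNORA28. The mean was 0.543 FPKM in both groups. Its log2 fold change was 0.0027 (95% interval -0.21 to 0.22, limma adjusted p = 1 without a filter), on a scale that understates changes of genes this low. PEX13 overlaps PUS10 on the opposite strand (log2 fold change 0.20, limma adjusted p = 0.127).

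RPUSD1 and RPUSD2, whose substrates are less well known, both had lower means in LV-SNORA28. RPUSD2 (ENSG00000166133; chromosome 15, 40569299 to 40574949, plus strand) gave 9.49, 8.22 and 9.83 FPKM with LV-NC, against 8.14, 7.76 and 7.22 FPKM with LV-SNORA28. The groups were separate by a narrow margin, 8.22 against 8.14 FPKM. The log2 fold change was -0.22 (95% interval -0.43 to -0.02), with an unadjusted p of 0.0367 and a limma adjusted p of 0.149. RPUSD1 (ENSG00000007376; chromosome 16, 784974 to 788397, minus strand) gave 10.86, 12.34 and 12.85 FPKM with LV-NC, against 9.68, 11.5 and 10.15 FPKM with LV-SNORA28, and the groups overlapped (log2 fold change -0.19, 95% interval -0.41 to 0.03, limma adjusted p = 0.245). Of the 3 RluA relatives on the list, RPUSD4 passed the test and RPUSD1 and RPUSD2 did not.

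**Figure D2:**
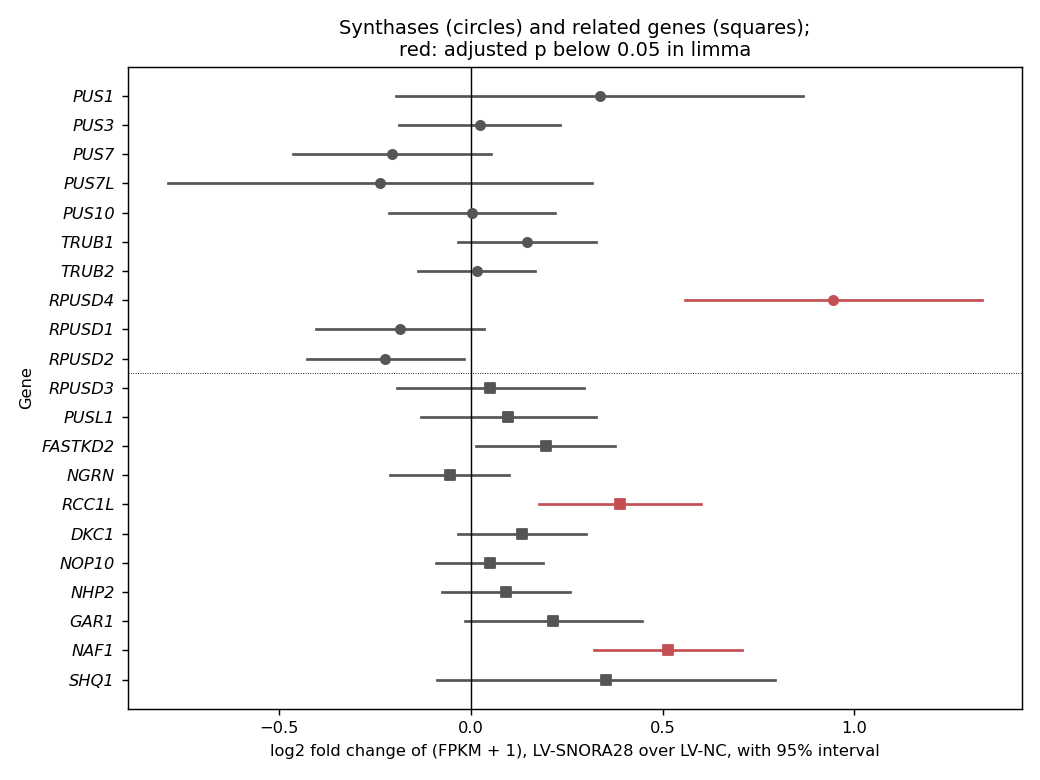
Log2 fold change of FPKM + 1, LV-SNORA28 over LV-NC (horizontal axis), with its 95% interval for each gene (vertical axis), for the 10 synthases (circles) and 11 related genes (squares). Intervals of RPUSD4 (0.56 to 1.33), RCC1L (0.18 to 0.60) and NAF1 (0.32 to 0.71) are red, for a limma adjusted p below 0.05.

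Set side by side, the 10 synthases spanned levels from 13.6 FPKM for TRUB1 to 0.543 FPKM for PUS10 in LV-NC. The order was TRUB1, RPUSD1, TRUB2, RPUSD2, PUS7, PUS1, PUS3, RPUSD4, PUS7L and PUS10. The ranges of TRUB2 and RPUSD2, of RPUSD2 and PUS7, of PUS7 and PUS1, and of PUS1 and PUS3 overlapped, and those of the other 5 pairs of neighbours were apart. The first 3 of the overlapping pairs kept their order in 2 of 3 libraries, whereas PUS1 lay above PUS3 in all 3. In LV-SNORA28, RPUSD2, PUS7, RPUSD4 and PUS1 had means of 7.71, 7.69, 7.50 and 7.49 FPKM with overlapping ranges.

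The share of each gene in the summed FPKM of the 10 synthases does not depend on the scaling of the library. The sum was 71.2, 66.6 and 71.6 FPKM in LV-NC and 69.6, 74.8 and 73.2 FPKM in LV-SNORA28, with overlapping groups (exact two-sided permutation p = 0.3). RPUSD4 made up 4.54%, 4.95% and 4.88% of it in LV-NC and 7.85%, 12.1% and 10.9% in LV-SNORA28, a difference of 5.49 percentage points (exact permutation p = 0.1, the smallest possible). The share of RPUSD2 was 13.1% ± 0.716 in LV-NC and 10.6% ± 0.948 in LV-SNORA28 (SD, n = 3; exact permutation p = 0.1, which cannot pass 0.05), and its groups did not overlap. The shares of the other 8 synthases overlapped between the groups, and a larger share of RPUSD4 lowers those of the others by construction. The values were not adjusted for the 10 shares tested.

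**Figure D3:**
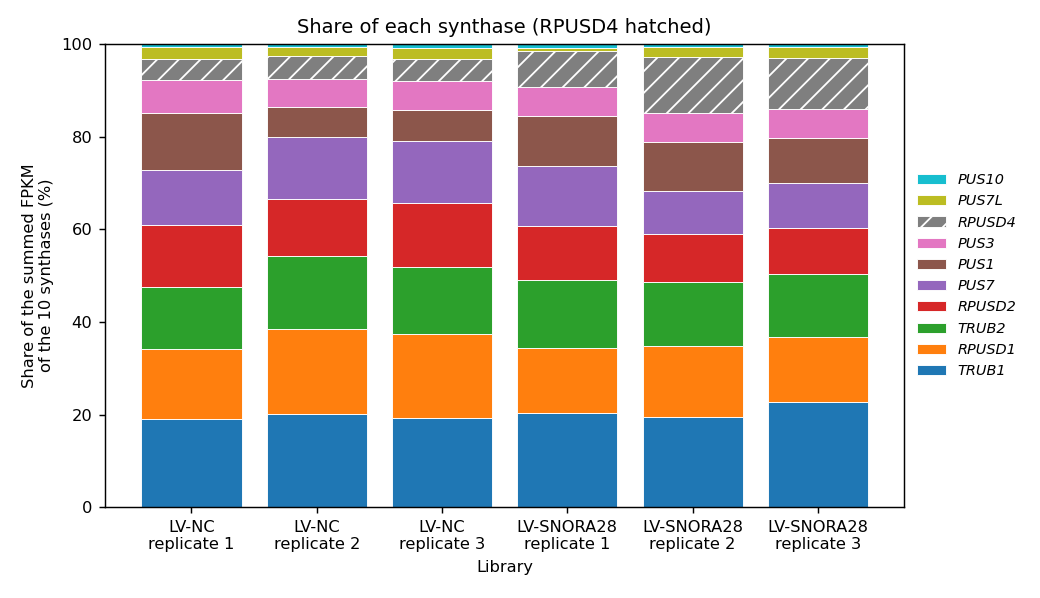
Share of each synthase in the summed FPKM of the 10 synthases (vertical axis, percent) in each of the 6 libraries (horizontal axis), stacked from the highest to the lowest mean in LV-NC. The hatched RPUSD4 segment is 4.54% to 4.95% in LV-NC and 7.85% to 12.1% in LV-SNORA28.

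Some synthases share a start region with a gene on the opposite strand, and these neighbours were read from the same fit after the synthase values were known. A protein-coding gene began on the opposite strand within 1000 bases of 5 of the 10 synthases, against 13.4% of all 20046 protein-coding genes. FAM118B, whose annotated start in GENCODE is 32 bases from that of RPUSD4, gave 4.3, 4.2 and 4.64 FPKM with LV-NC, against 5.66, 4.75 and 5.03 FPKM with LV-SNORA28. The ranges of the groups were separate, but FAM118B did not pass the test, with a log2 fold change of 0.19 and a 95% interval of -0.01 to 0.39 (limma adjusted p = 0.188). The log2 difference between RPUSD4 and FAM118B was -0.33, -0.27 and -0.33 in LV-NC and -0.04, 0.81 and 0.57 in LV-SNORA28 (exact two-sided permutation p = 0.1, the smallest possible), and the RPUSD4 values that make up this difference are those already described.

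At TRUB2 and RPUSD1 it was the neighbour whose values were higher. COQ4, a gene of coenzyme Q synthesis, starts 97 bases from TRUB2. It gave 5.11, 4.48 and 4.53 FPKM with LV-NC, against 7.1, 7.37 and 6.76 FPKM with LV-SNORA28 (log2 fold change 0.50, limma adjusted p = 0.0148, and up to 0.0649 with 1 library left out). CHTF18, a loader of the replication clamp that overlaps the start of RPUSD1, had log2 fold change 0.27 and a limma adjusted p of 0.0721. The log2 differences of TRUB2 to COQ4 and of RPUSD1 to CHTF18 were lower in each LV-SNORA28 library than in each LV-NC library, by 0.49 and 0.46 on average (exact permutation p = 0.1 for both). The share without overlap was 35.1% for single genes and was not computed for pairs. These differences, like that of RPUSD4 and FAM118B, are therefore no result about shared starts. IRAK4, which starts 151 bases from PUS7L, ranged from 0.63 to 2.3 FPKM with no order between the groups. DDX25, which starts 127 bases from PUS3, stayed at or below 0.05 FPKM.

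**Figure D4:**
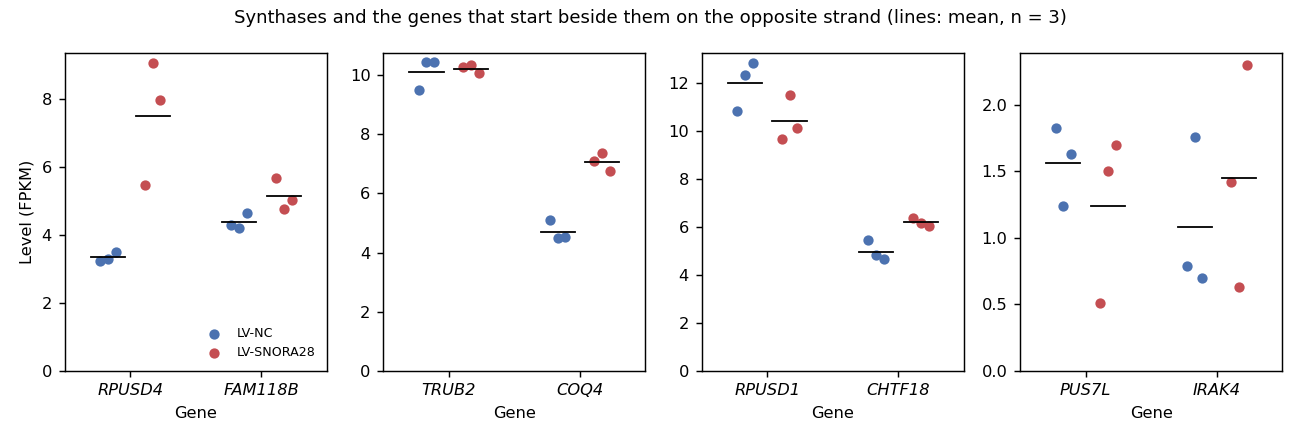
Level in FPKM (vertical axes, each from 0 and on its own scale) of 4 synthases and of the gene that starts beside each on the opposite strand, with 1 point per library (blue, LV-NC; red, LV-SNORA28) and a line at the mean of 3. RPUSD4 (3.23 to 3.49 against 5.46 to 9.05 FPKM) is separate between the groups by a wider margin than FAM118B (4.2 to 4.64 against 4.75 to 5.66 FPKM), and COQ4 (4.48 to 5.11 against 6.76 to 7.37 FPKM) is separate between the groups and TRUB2 is not.

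The related genes were examined as the most similar part of the pathway. These are the 6 H/ACA genes of the guide-dependent machinery, the relatives RPUSD3 and PUSL1, and the partners FASTKD2, NGRN and RCC1L. Of the 11 related genes, all of which passed the filter, 2 were higher (RCC1L and NAF1) and 0 lower by limma, against 6.81% and 2.1% of all genes tested. At an unadjusted p below 0.05 there were 3 higher and 0 lower, near the 22% of all genes that were higher, and the median log2 fold change was 0.13, against 0.0851 over all genes tested. Of the 6 H/ACA genes, NAF1, an assembly factor that is replaced by GAR1 as the particle matures, gave 2.54, 2.24 and 2.63 FPKM with LV-NC, against 3.72, 3.93 and 4.2 FPKM with LV-SNORA28 (log2 fold change 0.51, SE 0.08, limma adjusted p = 0.0174). It missed the threshold without LV-SNORA28 replicate 2 or 3, with adjusted p-values of 0.0697 and 0.0700. NAF1 also missed it without a filter (limma adjusted p = 0.0504). That fit was also read for NAF1 when the filter was a mean of at least 5 FPKM. The synthase subunit DKC1 and the core proteins NOP10, NHP2 and GAR1 had log2 fold changes of 0.13, 0.05, 0.09 and 0.21 with limma adjusted p-values from 0.205 to 0.629. SHQ1, the chaperone of DKC1, was listed at 4.21, 4.32 and 2.34 FPKM in LV-SNORA28 against 2.45 to 2.72 FPKM in LV-NC and did not pass (limma adjusted p = 0.269). PUSL1, a mitochondrial relative of PUS1, had a log2 fold change of 0.10 and a limma adjusted p of 0.555.

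Other enzymes that modify tRNA were read from a list of 70 genes. Of these, 67 passed the filter, 2 were tested without the filter and TRMT9B was listed at 0 in every library. By limma 4 of the 70 were higher in LV-SNORA28 and 0 lower, against 6.81% and 2.1% of all genes tested. At an unadjusted p below 0.05 there were 15 higher and 0 lower, against 22% and 6.08% of all genes. For genes that were higher, both counts lay near the share over all genes and are no result about the list. The median log2 fold change was 0.08, against 0.0851 over all genes tested. The 4 were CDKAL1 (log2 fold change 0.63), which adds a methylthio group beside the anticodon, METTL2A (0.48), a methyltransferase of the anticodon loop, TYW1 (0.43), an enzyme of wybutosine synthesis, and TRMT1L (0.36), a relative of the guanosine methyltransferase TRMT1. Their limma adjusted p-values were 0.0366, 0.0495, 0.0188 and 0.0391. With 1 library left out, TYW1 and TRMT1L each passed in 1 of the 6 fits and CDKAL1 and METTL2A in 0. METTL2A has a near copy, METTL2B (log2 fold change 0.37, limma adjusted p = 0.0647), so its reads are uncertain.

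The stability of the synthase values was examined in 13 alternative fits. RPUSD4, RPUSD1, RPUSD2, PUS7, PUS1 and TRUB1 kept their direction in all of them, whereas PUS3, PUS7L, PUS10 and TRUB2 changed sign in at least 1.

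**Figure D5:**
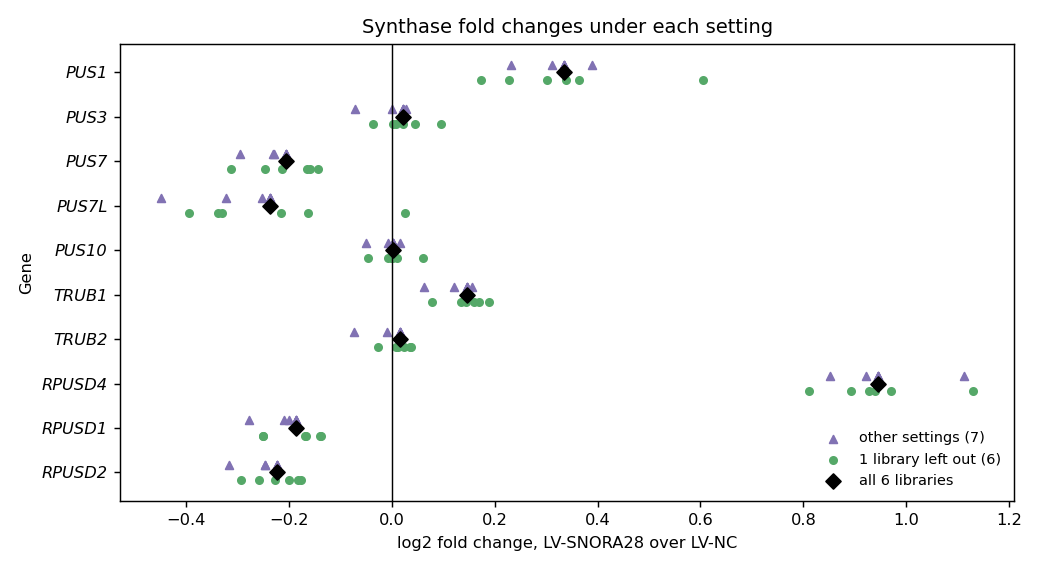
Log2 fold change of each synthase, LV-SNORA28 over LV-NC (horizontal axis), by gene (vertical axis), with all 6 libraries (black diamonds), in 6 fits that each leave out 1 library (green circles) and in 7 fits with another setting (purple triangles). RPUSD4 stays between 0.81 and 1.13, and PUS1 reaches 0.60 only without LV-NC replicate 1.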

How the data were processed

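Poly(A)-selected RNA of 6 HCT116 libraries was sequenced, and per the labels the second cDNA strand was labelled with U and removed. The authors deposited 1 table per library of Ensembl genes with FPKM values, which are scaled by transcript length and the mapped total. The submitters' processing notes name cutadapt 1.9, HISAT2 2.2.1, StringTie 2.1.6 and hg38, without roles, and also DESeq2 and edgeR, without a version. The annotation release, the strand setting and the totals are not given in the sources used here. Depth is therefore unknown, and no count model was used here. Groups came from the sample titles. Symbols and coordinates came from GENCODE release 44 (GRCh38), which may differ from the authors' annotation, and promoters from RefSeq.

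Values were transformed to log2(FPKM + 1), filtered at a mean of at least 1 FPKM and fitted with limma 3.58.1 in R 4.3.3 with a mean-variance trend, with two-sided p-values adjusted over all 12076 genes tested. For genes under the filter, a fit without it was read. Exact permutation tests were run in Python 3.11.15 with scipy 1.17.1. The text names all 10 synthases, SNORA28, the related genes, and up to 5 called tRNA modification genes in each direction. The members and lists were chosen with earlier results of these data known. Alternatives were quantile normalization, scaling to the nuclear FPKM sum, no filter, a mean of at least 5 FPKM, a pseudocount of 0.1, no trend, the replicate number as a block and each library left out. Neighbour genes, mitochondrial substrates and promoter motifs were added after the data were seen.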

Additional observations from a re-analysis of the deposited data

How the results depend on the processing

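The files hold FPKM of unknown depth, so the precision of PUS7L and PUS10, near or below 1 FPKM, rests on the spread of 3 libraries. RPUSD4 passed the test in 6 of the 7 fits with another setting (log2 fold change 0.85 to 1.11), and its limma adjusted p was 0.0663 without a filter, where 32761 genes were tested. It passed in 1 of the 6 fits with 1 library left out, all with fewer samples. The synthases called numbered 0 without a filter and 0 to 1 with 1 library left out, and 1 to 2 met the threshold of the study. Unadjusted limma p-values for RPUSD2, RPUSD1 and PUS7, all lower in LV-SNORA28, were 0.00726, 0.0188 and 0.0367 with quantile normalization. They were 0.0540, 0.0520 and 0.142 with the replicate block, and no fit gave these genes an adjusted p below 0.05.

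Over all genes, the 1076 calls became 397 without a filter (306 higher, 91 lower) and 510 with the replicate block (378 higher, 132 lower), against 822 higher and 254 lower, and quantile normalization gave 451 higher and 375 lower. With 1 library left out there were 278 to 629 calls, 188 to 492 higher and 90 to 137 lower. The 2 related genes called became 1 with quantile normalization, nuclear scaling, a mean of at least 5 FPKM, no trend or the block, 0 without a filter, and 0 to 1 with 1 library left out. The 4 other tRNA modification genes became 1 with quantile normalization, no filter or the block and 2 with nuclear scaling, and 0 to 2 with 1 library left out. The cause was not tested.

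Signs that changed belonged to genes with no call. Quantile normalization gave -0.0723 for PUS3, -0.0497 for PUS10 and -0.0737 for TRUB2, and nuclear scaling -0.000351, -0.00695 and -0.00974. With 1 library left out PUS10 ran from -0.0459 to 0.0610, PUS3 from -0.0362 to 0.0956, TRUB2 from -0.0270 to 0.0362 and PUS7L from -0.39 to 0.0243. SNORA28 kept its call throughout. Libraries of the same replicate number did not deviate together, with correlations of deviations from the group means of -0.0441, 0.0914 and 0.00983 across genes for replicates 1, 2 and 3.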
